A study of Homo sapiens with 12 samples.

Results

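The comparison of TT-Seq with sheared total RNA covers 4 of the 12 samples of the series: 2 TT-Seq and 2 Total RNA-Frag-Seq libraries, chosen by their labels. The cells of both were K562, a human cell line from chronic myelogenous leukaemia that has erythroid features. They took up 4-thiouridine (4sU), which replaces uridine in growing RNA, for 5 min at a dose of 500 µM. A sonicator broke the RNA of either group into fragments. For TT-Seq the fragments that carried 4sU were then purified, and for Total RNA-Frag-Seq they were not, so the groups share label and shearing and differ in purification. The design text calls the RNA libraries biological duplicates of this 1 line. The comparison asks which parts of the RNA pool are taken up or left behind when the labelled fragments are isolated. It is described here in single 200 bp bins, on both strands, and inside and outside the authors' transcriptional units.

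Total RNA is dominated by molecules that persist, such as spliced mRNA, ribosomal RNA and small structured RNAs held in protein complexes. A short pulse of 4sU marks RNA that grew during the pulse, so labelled fragments come mainly from nascent transcripts, in which introns are still present. Introns are removed and degraded soon after they are made, and RNAs transcribed upstream and antisense of promoters are known to be short-lived. Shearing before purification separates the newly made end of a transcript from the older part of the same molecule.

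The binned counts summed to 68913035 and 71317148 in TT-Seq and to 43136737 and 33336294 in Total RNA-Frag-Seq, so Total RNA-Frag-Seq carries the larger counting error. Levels are given in CPM, the count divided by a library's own-strand unit counts and multiplied by 1e6, scaled by TMM (trimmed mean of M values) factors. The sign ± gives the SD of 2 libraries beside a level or share and the SE beside a log2 fold change, which is TT-Seq over Total RNA-Frag-Seq throughout. A feature is called higher or lower in TT-Seq at a Benjamini-Hochberg adjusted p under 0.05 in edgeR's quasi-likelihood test. Fold changes are relative within a library: without the TMM factors the median over all units moved from 0.09 to 0.44. In bulk RNA, fewer cells with a transcript and less of it per cell cannot be told apart. GATA1, the erythroid master regulator, held 9.52 and 10.4 CPM per kb of its RefSeq span in TT-Seq and 13.6 and 12.8 in Total RNA-Frag-Seq. Of 11 K562 and erythroid genes found in RefSeq, 8 reached 1 CPM per kb in TT-Seq and 9 in Total RNA-Frag-Seq. The 10 genes found for other cell types each stayed under 1 CPM per kb in the mean of both groups. Their summed level was 0.710 and 0.610 CPM per kb in TT-Seq and 1.596 and 1.28 in Total RNA-Frag-Seq, and its part in the results was not tested. The keratin gene KRT5 and the troponin gene TNNT2 had no count in any of the 4 libraries.

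Most counts of both groups lay inside units on the unit's strand, and TT-Seq put more of them into protein-coding units. mRNA class units held 71.0% and 71.2% of the counts in TT-Seq and 65.5% and 65.2% in Total RNA-Frag-Seq. Units of all other classes together held 17.9 ± 0.0375% against 21.8 ± 0.208% (n = 2 libraries a group here and below). The groups overlapped in neither share. The strand opposite a unit, where no other unit lay, held 0.722 ± 0.0338% in TT-Seq against 0.819 ± 0.063% in Total RNA-Frag-Seq. Ground outside units but within 5 kb of one held 0.577 ± 0.00773% against 0.608 ± 0.00338%, and ground farther away 7.62 ± 0.0535% against 8.29 ± 0.1304%. The mitochondrial genome, which fills 164 bins over both strands, held 2.14% and 2.00% in TT-Seq and 2.94% and 3.26% in Total RNA-Frag-Seq. For each of these 6 shares an exact two-sided permutation test gave p = 0.33, the smallest that 2 against 2 libraries allow. The authors segmented the units from TT-Seq itself, so their edges, and the share of counts inside them, are not independent of TT-Seq.

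**Figure D1:**
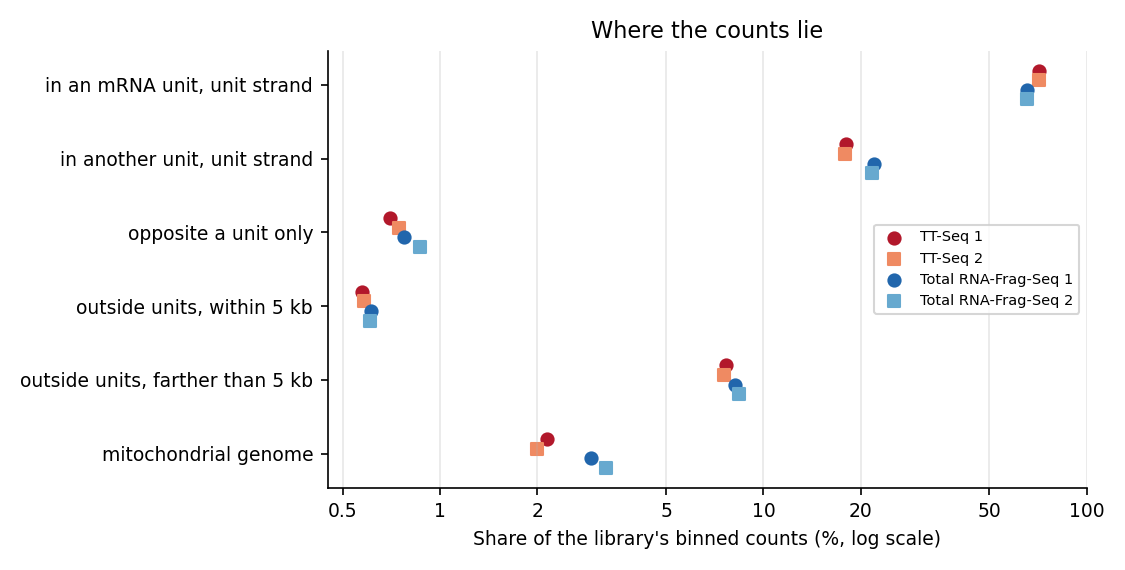
Share of each library's binned counts (percent, log scale) in 6 places, with 1 point per library. TT-Seq (red and orange) lies to the right of Total RNA-Frag-Seq (blue) for mRNA units, at 71.1 against 65.4% on average, and to the left for the other 5 places.

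TT-Seq also reached more of the ground inside units, which were segmented from TT-Seq and so are not independent of it. That segmentation favours TT-Seq inside units, and how far it shaped the shares below was not tested. With every library brought to the depth of the shallowest, 88.6% and 89.1% of the bins of mRNA units would hold at least 1 count in TT-Seq, against 85.0% and 84.2% in Total RNA-Frag-Seq. In other units the shares were 77.1 ± 0.280% and 72.3 ± 0.423%. Farther than 5 kb from every unit the order turned, with 3.34 ± 0.0388% of bins in TT-Seq and 3.63 ± 0.0587% in Total RNA-Frag-Seq. Opposite to units the groups overlapped, at 4.89% and 5.36% against 4.69% and 5.46%.

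Of 19318 units tested on their own strand, 43.2% were called higher and 37.8% lower in TT-Seq, which is 8340 and 7300 units. Without TMM factors 11171 were higher and 4848 lower. Among mRNA class units the fold change followed length. The 651 units under 10 kb had a median log2 fold change of -0.95, with 64 higher and 459 lower. For 2570 units of 20 to 50 kb the median was -0.47 (375 higher, 1731 lower), and for the 379 units over 200 kb it was -0.02 (117 higher, 147 lower). Without TMM factors the median was -0.60 under 10 kb, changed sign between units of 20 to 50 kb (-0.13) and of 50 to 100 kb (0.13), and was 0.32 over 200 kb, where 271 were higher and 43 lower. Over the 7808 mRNA units tested, length and log2 fold change had a Spearman rho of 0.39, a description across genes that share the same 4 libraries. The count over a unit takes exons and introns together, since no exon annotation was used here.

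Of the 7808 mRNA units tested, 17.9% were higher and 61.2% lower, and without TMM factors 39.7% and 39.1%. The gene lists below, which also hold units of other classes, are read beside these shares, and no list was tested against them. Genes of the transcription machinery lay on both sides. RNA polymerase II, the enzyme that makes mRNA, had 6 genes with a tested unit, of which 0 were higher and 5 lower (median -1.10, against 0.09 over all units and -0.34 over mRNA units). POLR2E, a subunit shared with the other nuclear polymerases (chr19:1082474-1095360, minus strand), had 17.9 and 17.8 CPM in TT-Seq and 69.3 and 56.1 CPM in Total RNA-Frag-Seq. Its log2 fold change was -1.81 ± 0.12 (adjusted p = 2.55e-08), and the groups stood far apart. POLR2L, another shared subunit, followed at -1.41 ± 0.13. Of 17 general transcription factors, which place the polymerase at promoters, 4 were higher and 8 lower, but 9 higher and 6 lower without TMM factors (median -0.14 and 0.20). GTF2E1, the large subunit of TFIIE (chr3:120742757-120795689, plus strand), had 65.4 and 64.2 against 35.9 and 38.01 CPM (0.81 ± 0.07), and GTF2B, which is TFIIB, stood at 0.71 ± 0.07. The TFIIH helicase gene ERCC2 (chr19:45345865-45371223, minus strand) was on the other side with 20.9 and 21.9 against 68.3 and 70.6 CPM (-1.70 ± 0.08), as was TAF9B, a TFIID subunit gene (-1.29 ± 0.09). Of 18 units of Mediator, the complex that links activators to the polymerase, 5 were higher and 9 lower, but 10 higher and 7 lower without TMM factors (median -0.13 and 0.21). MED17, a scaffold subunit of the Mediator head (chr11:93783556-93820006, plus strand), had 86.9 and 82.9 CPM in TT-Seq and 40.9 and 40.03 CPM in Total RNA-Frag-Seq. Its TT-Seq libraries both exceeded those of Total RNA-Frag-Seq, with a log2 fold change of 1.07 ± 0.07 (adjusted p = 6.54e-10), and MED18 stood at 0.44 ± 0.10. MED25 (-1.46 ± 0.10) and MED12, a subunit of the kinase module (-1.38 ± 0.08), were the lowest of the complex.

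Among genes for RNA-binding proteins, the share of lower units was 81.5% for SR proteins and hnRNPs, 66.7% for snRNP proteins and 48.4% for RNA decay factors, against 61.2% of mRNA units. Of 27 SR proteins and hnRNPs, which coat nascent RNA and steer splicing, 3 were higher and 22 lower (median -0.71). The splicing repressor gene PTBP1 (chr19:797416-813121, plus strand) had 70.7 and 75.1 CPM in TT-Seq and 330.5 and 298 CPM in Total RNA-Frag-Seq, which gave -2.11 ± 0.08 on the log2 scale (adjusted p = 1.11e-11). The intronless gene PCBP1 stood at -2.05 ± 0.06, while HNRNPLL (0.45 ± 0.05) and TRA2B (0.33 ± 0.05) were higher. Among 15 proteins of the spliceosomal snRNPs, 2 were higher and 10 lower (median -0.53). SF3B5, a small subunit of the U2 particle (chr6:144077846-144096363, minus strand), had 33.6 and 32.7 against 158 and 136 CPM (-2.15 ± 0.07). SNRPD2, a gene of the Sm core ring that binds spliceosomal RNAs, stood at -1.72 ± 0.10. SNRPF, a gene of the same ring (chr12:95858959-95888242, plus strand), had 56.8 and 52.2 against 26.2 and 23.5 CPM (1.13 ± 0.08), so members of 1 complex lay on opposite sides. The other higher unit, PRPF4 (0.34 ± 0.09), lost its call without Total RNA-Frag-Seq replicate 2 (0.19, adjusted p = 0.0694). RNA decay factors counted 8 higher and 15 lower of 31, but 19 higher and 7 lower without TMM factors (median -0.12 and 0.23). The exosome helicase gene MTREX (0.49 ± 0.05) and the decapping cofactor gene DCP1B (0.56 ± 0.08) were higher. UPF1, the helicase of nonsense-mediated decay (-0.86 ± 0.06), and CNOT3, a subunit of the deadenylase complex (-0.78 ± 0.08), were lower.

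Translation genes had shares of lower units near that of mRNA units, 70.4% for initiation factors and 68.6% for mitochondrial ribosomal proteins. Of 27 initiation factors, 4 were higher and 19 lower (median -0.65). EIF5A, which helps ribosomes through difficult peptide bonds (chr17:7306904-7316370, plus strand), had 40.9 and 50.7 CPM in TT-Seq and 271 and 259 CPM in Total RNA-Frag-Seq, or -2.53 ± 0.15 on the log2 scale (adjusted p = 6.05e-07). EIF2S3, a subunit of the factor that brings the initiator tRNA (chrX:24054443-24083053, plus strand), had 227 and 214 against 857 and 739.5 CPM (-1.85 ± 0.06). In both genes every Total RNA-Frag-Seq library exceeded both TT-Seq libraries several times over. EIF4E, the cap-binding protein gene, was higher at 0.37 ± 0.05, and EIF5B at 0.44 ± 0.10, a call lost without Total RNA-Frag-Seq replicate 2 (0.37, adjusted p = 0.0987). Mitochondrial ribosomal proteins, which are made from nuclear genes, counted 9 higher and 35 lower of 51 (median -0.64). MRPS2 (-2.21 ± 0.11) and MRPS12 (-1.85 ± 0.14) were lowest, while MRPL47 (0.87 ± 0.08) and MRPL1 (0.65 ± 0.06) were highest. Of the 23 units of this list with the mRNA class, the higher ones had a median length of 42.5 kb and the lower ones of 15.6 kb.

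Nuclear pore and chromatin genes held units of either direction, and their balance depended on the scaling, as did that of mRNA units. Of 21 nucleoporins, 4 were higher and 12 lower, but 11 higher and 8 lower without TMM factors (median -0.20 and 0.15). NUP37, part of the Y-shaped scaffold of the pore (chr12:102066503-102120095, minus strand), had 106 and 102 against 51.1 and 49.5 CPM (1.05 ± 0.07). NUP62 of the central channel (chr19:49900709-49929970, minus strand) had 65.6 and 68.9 against 154 and 149.8 CPM (-1.17 ± 0.05). RAE1, an mRNA export factor, stood at 0.51 ± 0.07 and NUP50, a mobile pore protein, at -0.93 ± 0.06. Histone methyltransferases and demethylases counted 4 higher and 17 lower of 28, but 13 higher and 9 lower without TMM factors (median -0.24 and 0.10). The demethylase gene KDM6A (0.40 ± 0.05) and the Polycomb gene EED (0.37 ± 0.06) were higher. The methyltransferase gene KMT2B (-1.87 ± 0.11) and the demethylase gene KDM6B (-1.40 ± 0.10), a relative of KDM6A, were lower. Chromatin remodellers of the SWI/SNF, CHD and ISWI families counted 8 higher and 11 lower of 21, but 12 higher and 9 lower without TMM factors (median -0.19 and 0.16). CHD2 (chr15:92882688-93029034, plus strand) had 724 and 721 against 482 and 493 CPM (0.57 ± 0.05). Its relative CHD3, of the NuRD complex (chr17:7884788-7915065, plus strand), had 14.3 and 16.8 against 52.8 and 51.8 CPM (-1.75 ± 0.08). INO80 (0.47 ± 0.06) and the SWI/SNF subunit gene SMARCD2 (-1.66 ± 0.09) came next on either side.

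Of the genes of protein turnover and trafficking, 65.4% of cullins and ubiquitin-conjugating enzymes and 64% of secretory genes were lower, close to the share of mRNA units, and 85% of lysosomal genes. Cullins and ubiquitin-conjugating enzymes counted 5 higher and 17 lower of 26, but 14 higher and 8 lower without TMM factors (median -0.22 and 0.13). The ligase scaffold genes CUL3 (0.61 ± 0.05) and CUL1 (0.49 ± 0.05) were highest, and the conjugating enzyme genes UBE2A (-1.48 ± 0.08) and UBE2J2 (-1.31 ± 0.07) lowest. Lysosomal enzymes and membrane proteins counted 2 higher and 17 lower of 20, with the lowest median of these lists, -1.33. The protease gene CTSD (chr11:1749272-1763940, minus strand) had 11.2 and 12.8 against 50.9 and 49.1 CPM (-2.06 ± 0.14), and GAA, the gene of acid glucosidase, stood at -1.88 ± 0.12. SCARB2, a lysosomal membrane receptor gene, was higher at 0.31 ± 0.06, and the cholesterol transporter gene NPC1 at 0.18 ± 0.06, a call lost without TT-Seq replicate 1 (adjusted p = 0.0523) or Total RNA-Frag-Seq replicate 1 (adjusted p = 0.0621). Coat and translocon proteins of the secretory pathway counted 5 higher and 16 lower of 25, and 10 higher and 11 lower without TMM factors (median -0.29 and 0.06). SEC61G, a subunit of the translocon (chr7:54733245-54759948, minus strand), had 57.8 and 53.2 against 29.6 and 26.3 CPM (0.99 ± 0.10). ARF1, the GTPase that recruits coats to membranes (chr1:228082717-228107864, plus strand), had 109.5 and 107 against 434 and 399 CPM (-1.95 ± 0.06). COPG2 (0.69 ± 0.06) and COPE (-1.47 ± 0.13), both subunits of the COPI coat, lay on opposite sides.

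Of 22 actin and tubulin genes and their partners, 2 were higher and 19 lower (86.4%, median -0.88). ACTG1, the cytoplasmic gamma actin gene (chr17:81507837-81512791, minus strand), had 71.03 and 64.97 CPM in TT-Seq and 457 and 389 CPM in Total RNA-Frag-Seq, or -2.64 ± 0.08 on the log2 scale (adjusted p = 5.57e-12), the lowest of any unit in these lists. The tubulin gene TUBB4B stood at -2.21 ± 0.10. CAPZA2, an actin-capping protein gene (chr7:116862529-116930276, plus strand), was higher with 229 and 221 against 144 and 137 CPM (0.68 ± 0.06). ACTR3, of the Arp2/3 complex, stood at 0.12 ± 0.05 (adjusted p = 0.0422), a call lost without TT-Seq replicate 1 (adjusted p = 0.17) or Total RNA-Frag-Seq replicate 2 (adjusted p = 0.606) and with DESeq2 (adjusted p = 0.113). Over the 20 units of this list with the mRNA class, length and log2 fold change had a Spearman rho of 0.86, against 0.39 over all mRNA units. The higher units had a median length of 83.8 kb and the lower ones of 16.9 kb. For secretory genes rho was 0.72 (21 units), for Mediator 0.16 (12) and for snRNP proteins -0.03 (13). These differences were not tested.

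Of the cell cycle genes 52.9% were lower and of the MAPK feedback regulators 31.2%, against 61.2% of mRNA units. Cyclins and their kinases counted 2 higher and 9 lower of 17, but 8 higher and 7 lower without TMM factors (median -0.38 and -0.03). CDK17 (chr12:96321814-96401405, minus strand) had 199 and 205 against 122 and 126 CPM (0.71 ± 0.05). CDK6, a kinase of the G1 phase, stood at 0.16 ± 0.05, a call lost without TT-Seq replicate 1 (adjusted p = 0.0679) or Total RNA-Frag-Seq replicate 2 (adjusted p = 0.0832). CCND3, a partner of CDK6 (-1.19 ± 0.08), and CCNI (-1.11 ± 0.06) were lowest. Feedback regulators of the MAPK pathway, many of them made from short-lived mRNAs, counted 6 higher and 5 lower of 16, and 11 higher and 3 lower without TMM factors (median -0.03 and 0.31). DUSP10, a phosphatase of stress kinases (chr1:221693099-221743659, minus strand), had 332 and 322 against 178 and 189 CPM (0.83 ± 0.05), and SOCS6 stood at 0.80 ± 0.07. The related phosphatase genes DUSP7 (-1.18 ± 0.12) and DUSP3 (-1.14 ± 0.08) were lower.

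Of the 20 genes that mark K562 and erythroid cells, 7 carried a tested unit. TFRC, the transferrin receptor gene (0.28 ± 0.05), was higher, as was MYB (0.23 ± 0.07), a call lost without Total RNA-Frag-Seq replicate 2 (0.12, adjusted p = 0.214). The units at TAL1 (-0.99 ± 0.06), LYL1 (-0.78 ± 0.08), ZFPM1 (-0.67 ± 0.09) and the haem synthesis gene ALAS2 (-0.59 ± 0.11) were lower. The unit at the glycophorin gene GYPB had 44.5 and 43.5 against 45.2 and 43.9 CPM, with overlapping groups (-0.02 ± 0.07, adjusted p = 0.818). Of the markers of other cell types, CD3D had 1.55 and 1.12 against 4.86 and 3.63 CPM and SYP 1.73 and 1.95 against 2.52 and 2.72 CPM. Both were lower, SYP with a call lost without TMM factors (adjusted p = 0.385) or TT-Seq replicate 1 (adjusted p = 0.097). Units were named by their match to RefSeq gene spans, and those named PCBP1, SF3B5, SNRPD2, SEC61G, TAL1, LYL1 and GYPB carry a non-coding class in the authors' table, and those named MED18, MRPL47, MRPS2 and MRPS12 none.

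Along a unit, TT-Seq counts were highest in the first part and lowest in the last, while those of Total RNA-Frag-Seq dipped to part 4, climbed to part 8 and were lowest in part 10. The profile was taken over 6049 mRNA units of at least 10 kb and at least 500 counts in each library, with equal weight per unit. Each unit was cut into 10 equal parts. Part 1 held 12.6% and 12.9% of the counts in TT-Seq and 10.96% and 11.7% in Total RNA-Frag-Seq. Part 4 held 10.7 ± 0.0664% against 9.03 ± 0.253%, and part 9 held 8.22 ± 0.167% against 11.3 ± 0.550%. Part 10 held 4.80% and 4.60% in TT-Seq and 7.33% and 6.57% in Total RNA-Frag-Seq. TT-Seq was the higher in each of parts 1 to 5 and the lower in each of parts 6 to 10, and the groups overlapped in 0 of the 10. The exact two-sided permutation test gave p = 0.33 for each. With counts summed over units the gap in part 1 was 0.58 percentage points in place of 1.43, and over units of at least 50 kb it was 0.81.

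TT-Seq counts were also spread more evenly. In the median unit the highest 10% of bins held 35.0% and 34.9% of the counts in TT-Seq and 44.8% and 44.3% in Total RNA-Frag-Seq. At an equal 500 counts per unit, 64.0% and 64.4% of bins would hold a count in TT-Seq and 56.7% and 57.0% in Total RNA-Frag-Seq. In 4805 of the 6049 units this share was larger in both TT-Seq libraries than in both others, and in 9.29% of units it was smaller. The gap was narrower over units of at least 50 kb, where the highest 10% of bins held 34.01 ± 0.0754% against 40.9 ± 0.344%.

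**Figure D2:**
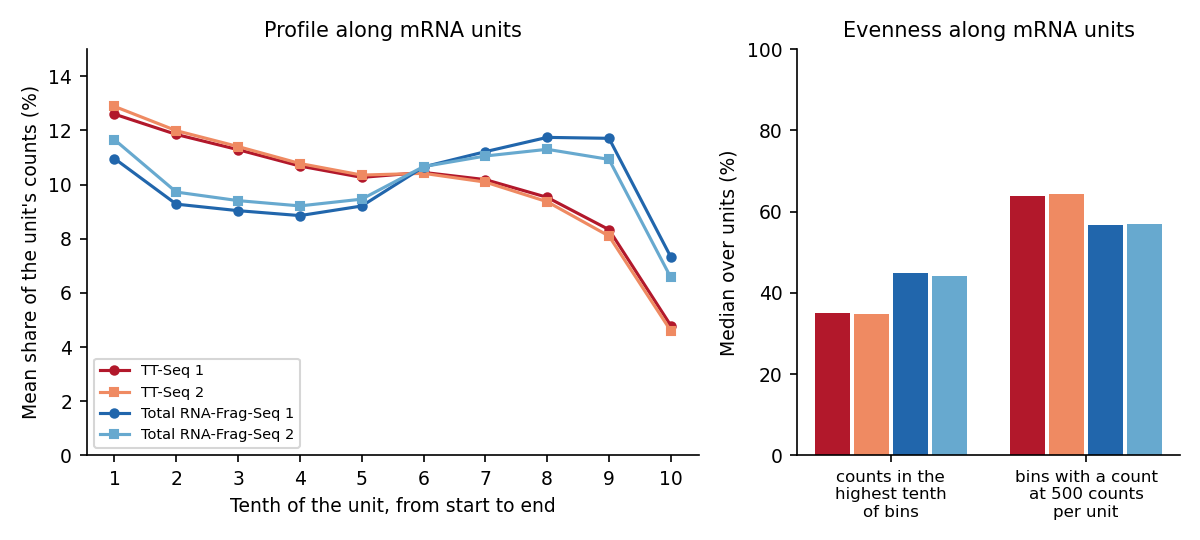
Left, mean share of a unit's counts (percent) in each of 10 parts from start to end over 6049 mRNA units, 1 line per library. The TT-Seq lines (red and orange) fall from 12.7 to 4.70% on average and cross those of Total RNA-Frag-Seq (blue), which reach 11.5% in part 8. Right, medians over these units of 2 measures of evenness (percent), 1 bar per library in the same colours: 35.0 against 44.6% of counts in the highest 10% of bins and 64.2 against 56.8% of bins with a count.

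Among the single bins tested, units called higher and units called lower were both mosaics. At least 0.5 CPM in both libraries of either group was enough for a bin to be tested. Some bins therefore passed only through the group where they were high. Spearman's rho over the tested bins was 0.026 and 0.096 between libraries of different groups, and 0.90 and 0.885 between replicates. How far this filter shaped the mix of directions was not tested. Of 629634 bins tested, 30.8% were called higher and 35.7% lower in TT-Seq. The direction of this split depended on the scaling: without TMM factors 261074 bins were higher and 186947 lower, and with factors computed on the bins themselves 218756 and 212085. Bins in mRNA units were higher in 159368 and lower in 153427 of 482253. Of 5679 tested mRNA units with at least 10 tested bins, 5277 (92.9%) held bins called in both directions. In the 1070 units called higher as a whole, 51.0% of bins were higher and 12.9% lower. In the 3540 called lower, 22.2% of bins were higher and 44.7% lower.

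The split differed from stretch to stretch of a unit, as counts over 50 kb show. The CPM of a stretch sums its tested bins only, and a bin could pass the filter through either group alone. SND1, a nuclease gene with a unit of 456 kb (chr7:127652159-128107920, plus strand), had 1742 and 1779 CPM in TT-Seq and 1276 and 1318 CPM in Total RNA-Frag-Seq (0.44 ± 0.05). Of its 1446 tested bins 669 were higher and 131 lower, with single-bin log2 fold changes from -4.47 to 3.69. From 200 to 250 kb after the start, 134 of 163 bins were higher, and these bins held 195 and 198 CPM in TT-Seq against 66.0 and 69.0 in Total RNA-Frag-Seq. From 350 to 400 kb, 28 bins were higher and 46 lower. Its lowest bin (chr7:128092001-128092200) had 0.432 and 0.755 CPM in TT-Seq and 13.6 and 12.9 in Total RNA-Frag-Seq. CPED1 (chr7:120986181-121313788, plus strand) had 3110.0 and 2941 against 2043 and 2219 CPM (0.51 ± 0.05), with 659 bins higher and 118 lower of 1374. THRB, the thyroid hormone receptor beta gene (chr3:24112973-24506540, minus strand), held 175 lower bins beside 392 higher ones, the most lower bins of any named unit called higher. In its first 50 kb 83 of 167 bins were lower and 5 higher, and from 250 to 300 kb 97 of 127 were higher and 0 lower. Its own call (0.22 ± 0.06) was lost without Total RNA-Frag-Seq replicate 1 (0.12, adjusted p = 0.0762). MBNL1, a splicing regulator gene (chr3:152243488-152474654, plus strand), stood at 0.25 ± 0.05 with 347 bins higher and 149 lower of 869. In its first 50 kb 104 of 137 bins were higher and 2 lower, and in the next 50 kb 27 of 222 were higher and 90 lower. The others of this kind were the Polycomb cofactor gene JARID2 (0.26 ± 0.05), the kinase gene CDC42BPA (0.30 ± 0.05), the GTPase regulator gene ARHGAP6 (0.23 ± 0.05) and CCNY (0.15 ± 0.06), a cyclin gene whose call was lost without TT-Seq replicate 2 or either Total RNA-Frag-Seq library (adjusted p from 0.0541 to 0.171) and with DESeq2 (adjusted p = 0.0672).

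Units called lower held long higher stretches as well. ARL15, a small GTPase gene (chr5:53871902-54315046, minus strand), had 1497 and 1531 CPM in TT-Seq and 2051 and 2316 CPM in Total RNA-Frag-Seq (-0.53 ± 0.06, adjusted p = 5.04e-07), with 196 bins higher and 801 lower of 1573. From 150 to 200 kb after the start 103 of 169 bins were higher and 1 lower, with 205 and 196 CPM in TT-Seq against 103 and 117 in Total RNA-Frag-Seq. From 200 to 250 kb 4 of 222 were higher and 193 lower, with 169 and 173 CPM against 363 and 402. Across that point the sum over tested bins went down in TT-Seq and up in Total RNA-Frag-Seq. The sums cover 169 and 222 bins that passed the filter, so they are not levels of whole stretches. MAST4, a microtubule-associated kinase gene (chr5:66596232-67175844, plus strand), held its lower stretches at both ends: in the first 50 kb 131 of 158 bins were lower and 1 higher, and from 450 to 500 kb 68 of 100 were higher and 0 lower, while from 550 kb on 19 of 77 were higher and 33 lower. ARL15 too began lower, with 10 of 194 bins higher and 79 lower in its first 50 kb. MACF1, a giant actin and microtubule linker gene (chr1:39105396-39490418, plus strand), held 246 higher and 199 lower bins of 660. From 100 to 150 kb 56 of its 59 bins were higher, with 51.3 and 53.9 CPM in TT-Seq against 16.0 and 18.4 in Total RNA-Frag-Seq. The whole-unit values of MAST4 (-0.14 ± 0.05), MACF1 (-0.32 ± 0.05), PRKCB (-0.23 ± 0.06), CHCHD3 (-0.24 ± 0.05), NBAS (-0.16 ± 0.05), EPB41 (-0.32 ± 0.05) and EPS15 (-0.11 ± 0.05) were lower with TMM factors and turned positive without them, while that of ARL15 did not turn. With 1 library left out, MAST4 (adjusted p up to 0.235), NBAS (up to 0.175), PRKCB (up to 0.0568) and EPS15 (up to 0.386) lost their calls. In PRKCB, a protein kinase C gene, the last stretch from 350 kb held 75.3 and 72.7 CPM against 270.5 and 243, and 45 of its 82 bins were lower.

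**Figure D3:**
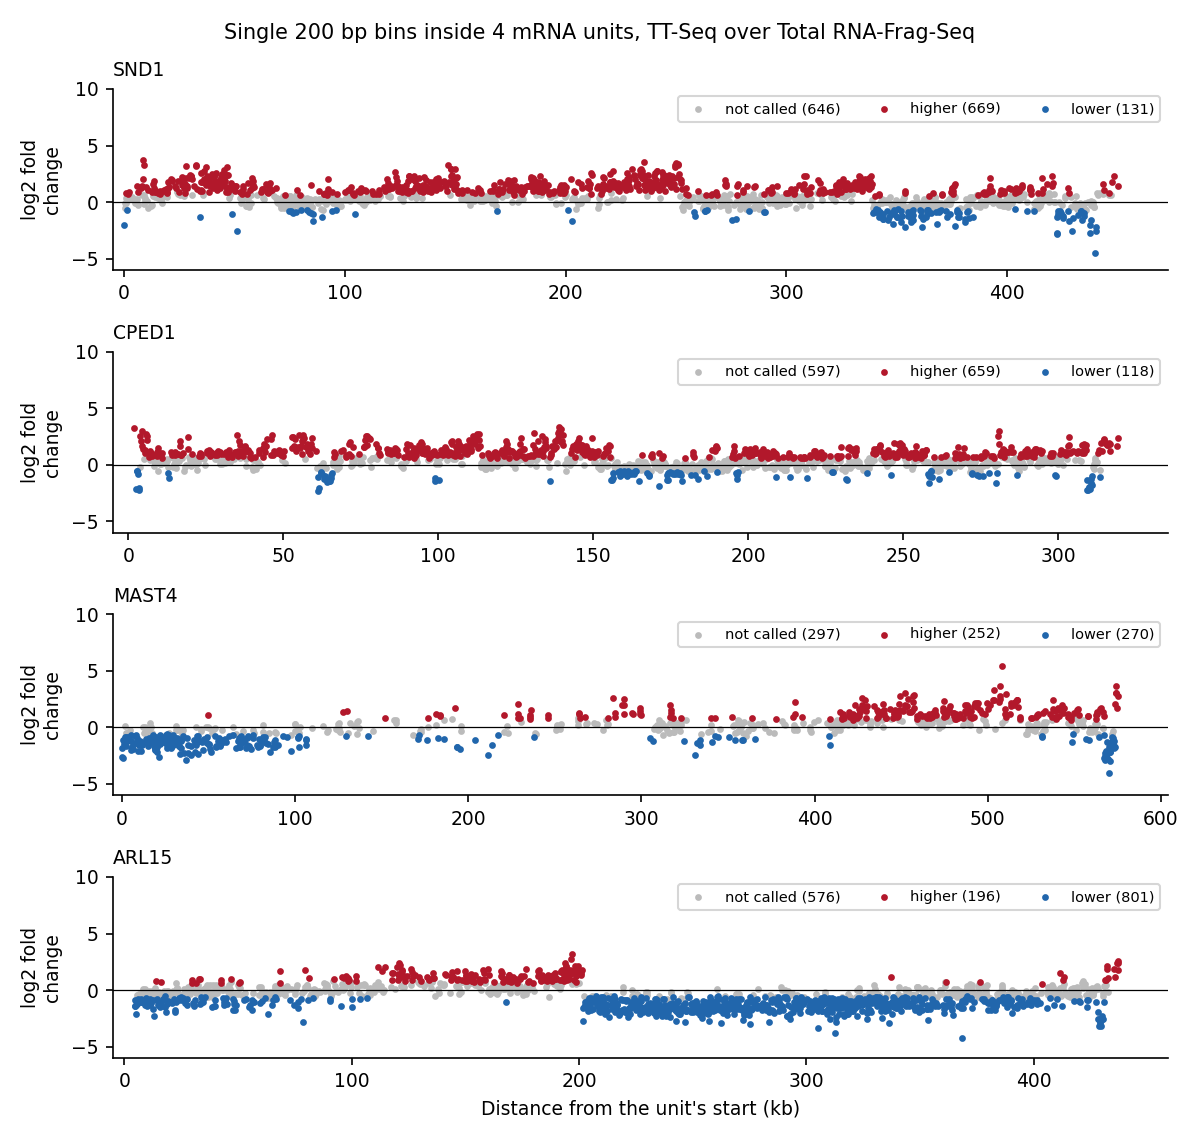
log2 fold change of single 200 bp bins against distance from the unit's start (kb) in SND1, CPED1, MAST4 and ARL15, with bins called higher in red, called lower in blue and not called in grey. In ARL15 the red run ends at about the point where the largest fall lies, 200.6 kb from the start, and 801 of its 1573 bins are lower.

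In most long units the largest fall was larger than the largest rise. For each of 1380 mRNA units with at least 100 tested bins, the median log2 fold change of 25 tested bins was compared with that of the next 25. Bins that were not tested were skipped. The largest fall exceeded the largest rise in 1044 units (75.7%), with medians of 1.86 for falls and 1.05 for rises on the log2 scale. A fall over 2 occurred in 618 units and a rise over 2 in 153. In ARL15 the largest fall was 2.75, from 1.58 to -1.17, at 200.6 kb. In CDK6 it was 4.57, from 1.64 to -2.93, at 222.4 kb of a unit of 235.6 kb. In ATF6, a sensor gene of the unfolded protein response, it was 4.61 at 208.6 kb of 222.5 kb. In MACF1 the largest fall was 3.42 at 226 kb and the largest rise 3.36 at 245.4 kb, with a short stretch of low values between them. No test was made of these steps, which were chosen after values were seen.

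The 6 longest units with at least 5 CPM had no common direction. RAD51B, a homologous recombination gene of 894 kb (chr14:67819822-68714064, plus strand), had 497 and 519 against 875 and 939 CPM (-0.84 ± 0.05). Of its 187 tested bins, out of 4471 in the unit, 121 were lower and 10 higher. FOXP1, a forkhead factor gene (chr3:70950109-71584640, minus strand), had 486 and 482 against 323 and 328 CPM (0.57 ± 0.05). Of its 131 tested bins, out of 3172 in the unit, 96 were higher and 9 lower. Its part 10 held 17.6% of counts in TT-Seq and 13.6% in Total RNA-Frag-Seq, and its part 1 8.55% and 15.1%, against the order over all units. CDKAL1, a tRNA-modifying enzyme gene, stood at 0.34 ± 0.05 and the exocyst gene EXOC4 at 0.29 ± 0.05. SUGCT was lower (-0.25 ± 0.05) but positive without TMM factors (0.10), and SOX6 was not called (-0.08 ± 0.05, adjusted p = 0.115) and also turned positive without them (0.26).

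Windows at the ends of mRNA units were more often lower than higher, except upstream on the other strand. Of 10454 windows tested, 18.0% were higher and 43.8% lower in TT-Seq. In the 1 kb upstream of the start on the unit's strand, 22 windows were higher and 447 lower of 607 tested (median -2.28). All 7519 such windows, tested or not, together held 158 and 210 CPM in TT-Seq against 569 and 611 in Total RNA-Frag-Seq. On the other strand of the same 1 kb, where upstream antisense RNA is made, 18 were higher and 6 lower of 63 (median 0.47). All 2210 windows of this kind, tested or not, together held 101.03 and 101.4 CPM in TT-Seq against 48.3 and 50.4 in Total RNA-Frag-Seq. The ratio of the means was 2.05. Of 6830 windows in the first 1 kb inside the unit 1265 were higher and 3012 lower (median -0.46). Of 1759 in the last 1 kb inside 472 were higher and 579 lower, which without TMM factors became 583 and 448 (median -0.14 and 0.20). Among 769 tested windows in the 2 kb downstream on the unit's strand 64 were higher and 337 lower (median -0.91). All 7241 windows of that kind, tested or not, together held 545 and 556 CPM against 736 and 729. On the other strand there 21 of 231 were higher and 105 lower. Windows outside a unit or on its other strand were used only where they met no unit on the strand counted. TT-Seq set the units' edges, so windows just outside an edge are not independent of it.

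**Figure D4:**
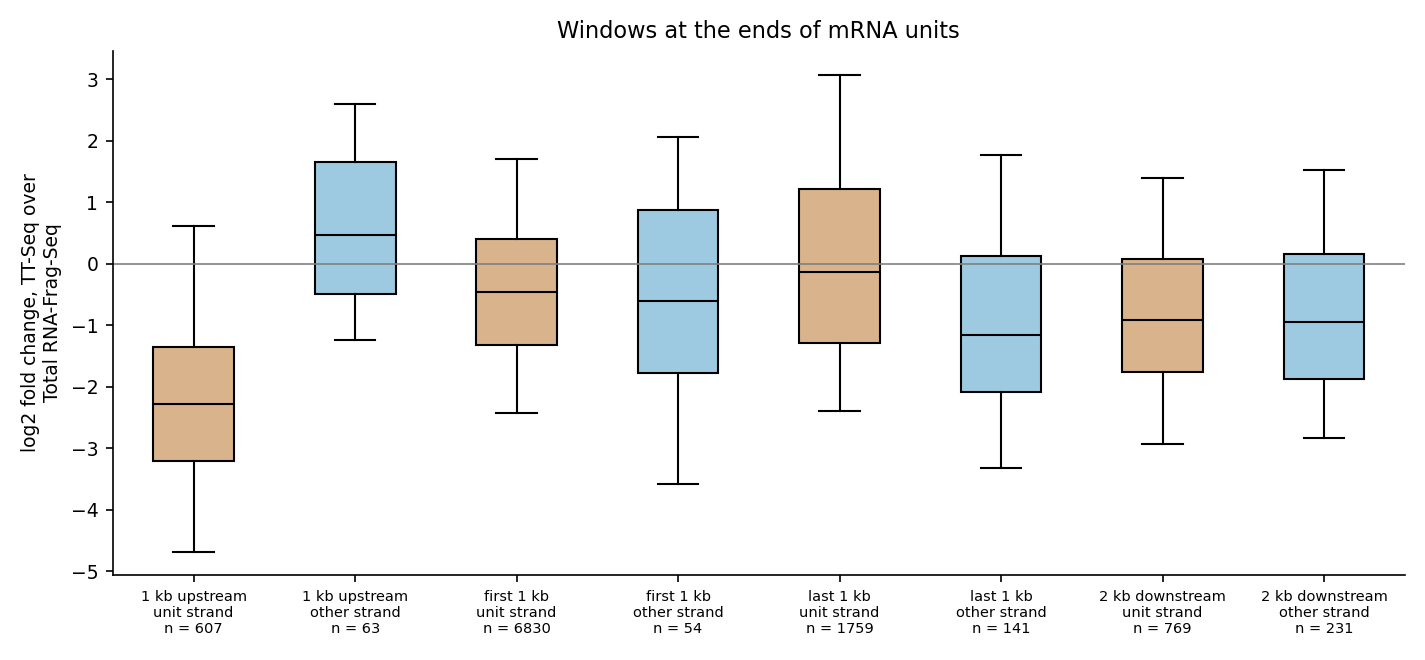
log2 fold change of tested windows at the ends of mRNA units, on the unit's strand (brown) and on the other strand (blue), with boxes for the quartiles, a line at the median and whiskers from percentile 5 to percentile 95. The upstream windows lie apart, with medians of -2.28 on the unit's strand and 0.47 on the other.

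Among the upstream windows on the other strand that were called higher at named units, the 3 with the highest TT-Seq levels are given. They were picked after their values were seen. At COG5, a Golgi complex gene, the window had 1.76 and 1.93 CPM in TT-Seq and 0.425 and 0.908 CPM in Total RNA-Frag-Seq (1.52 ± 0.28, adjusted p = 2.22e-05). At GPATCH2 it had 0.748 and 0.597 against 0.182 and 0.237 CPM (1.69 ± 0.43, adjusted p = 0.000925), and at PRDM2, a histone methyltransferase gene, 0.660 and 0.441 against 0.182 and 0.276 CPM (1.28 ± 0.44, adjusted p = 0.0113). In each of the 3 both TT-Seq libraries exceeded both others, at levels under 2 CPM. Their choice from windows called higher favoured such a separation.

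Over whole units the opposite strand was lower in TT-Seq more often than higher, but 4553 were higher and 3825 lower without TMM factors. Of 14775 units tested on it, 21.3% were higher and 36.4% lower. Where no other unit lay opposite within 1 kb, 28 mRNA units were higher and 184 lower of 847 (median -0.44). Summed over such units, the opposite strand held 0.805 and 0.863% of the own strand's counts in TT-Seq and 0.979 and 1.10% in Total RNA-Frag-Seq. The median over those with at least 100 counts, 1151 units, was 0.537 and 0.612% against 0.551 and 0.727%, with overlapping groups. Over 7415 mRNA units, with or without a unit opposite, the median was higher in TT-Seq, at 1.54 and 1.62% against 1.06 and 1.22%, while the summed share was lower, at 6.86 and 6.77% against 9.34 and 8.77%. The ratio of opposite to own strand does not depend on the scaling between libraries, and it was tested after the data were seen. Of 14155 such ratios, 21.8% were higher and 34.6% lower. In mRNA units with no unit opposite 72 ratios were higher and 81 lower of 847 (median -0.15), and in those with a unit opposite 1801 were higher and 1172 lower of 6017 (median 0.10). Units of other classes with a unit opposite went the other way, with 1150 higher and 3577 lower of 6869 (median -0.95). Where units overlap on opposite strands, the same bins enter both ratios with the strands exchanged. The skews of mRNA units and of other classes with a unit opposite are therefore not independent results. The ratio was lower in 1702 and higher in 186 of 2490 asRNA units, and in 217 and 52 of 361 uaRNA units (upstream antisense). It was lower in 475 and higher in 142 of 990 eRNA units (enhancer RNA), and in 246 and 46 of 398 conRNA units (convergent). Intergenic classes showed little such skew, with 217 lower and 223 higher of 881 sincRNA units and 48 and 42 of 192 lincRNA units.

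The mRNA units with the highest fold changes on a free opposite strand, and with high upstream antisense windows, are shown by their promoters, the 250 bases before the RefSeq start on the gene's strand (RefSeq, GRCh38.p14). Of NLE1, ATOSA, AUH and TMEM51, only NLE1 had most of its opposite-strand TT-Seq counts close to the start. The bin with most such counts lay 45 kb from the unit's start in ATOSA, 39 kb in AUH and 20.4 kb in TMEM51. Their promoters are therefore not shown as the place of that signal. Capitals mark exact matches on either strand to the GC box, searched as GGGCGG, and to the CCAAT box, searched by those 5 letters. The TATA box, searched on both strands as TATAAA, matched in none of the 6. COG5 and PIR are left out because their units start more than 1 kb from the RefSeq start. The unit at TMEM51 starts upstream of the RefSeq start but within 1 kb of it, so the stretch shown lies inside that unit.
NLE1 (chr17:35142304-35142553, minus strand): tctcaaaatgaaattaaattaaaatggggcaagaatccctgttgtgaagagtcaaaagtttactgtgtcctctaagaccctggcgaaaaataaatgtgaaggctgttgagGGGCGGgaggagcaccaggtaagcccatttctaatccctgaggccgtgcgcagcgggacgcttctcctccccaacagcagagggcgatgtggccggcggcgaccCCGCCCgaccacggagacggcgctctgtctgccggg
ATOSA (chr15:52679389-52679638, minus strand): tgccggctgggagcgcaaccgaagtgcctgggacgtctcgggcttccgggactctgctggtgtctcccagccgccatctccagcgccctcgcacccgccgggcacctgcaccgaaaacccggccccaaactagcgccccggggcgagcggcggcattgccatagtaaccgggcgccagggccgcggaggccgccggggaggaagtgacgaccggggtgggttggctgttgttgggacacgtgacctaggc
AUH (chr9:91361919-91362168, minus strand): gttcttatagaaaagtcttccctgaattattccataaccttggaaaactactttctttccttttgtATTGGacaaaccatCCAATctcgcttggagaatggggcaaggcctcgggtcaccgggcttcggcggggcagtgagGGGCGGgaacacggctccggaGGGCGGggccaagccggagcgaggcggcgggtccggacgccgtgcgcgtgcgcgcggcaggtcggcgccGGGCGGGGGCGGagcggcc
TMEM51 (chr1:15153497-15153746, plus strand): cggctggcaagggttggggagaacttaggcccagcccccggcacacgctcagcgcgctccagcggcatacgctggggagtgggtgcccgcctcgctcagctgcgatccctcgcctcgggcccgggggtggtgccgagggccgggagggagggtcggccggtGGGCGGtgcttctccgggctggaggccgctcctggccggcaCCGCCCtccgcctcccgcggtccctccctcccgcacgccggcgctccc
GPATCH2 (chr1:217631091-217631340, minus strand): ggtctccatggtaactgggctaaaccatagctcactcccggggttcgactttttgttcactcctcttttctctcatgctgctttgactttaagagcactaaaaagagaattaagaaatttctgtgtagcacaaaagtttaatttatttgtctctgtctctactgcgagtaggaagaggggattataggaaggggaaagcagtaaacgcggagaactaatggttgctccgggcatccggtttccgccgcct
PRDM2 (chr1:13699938-13700187, plus strand): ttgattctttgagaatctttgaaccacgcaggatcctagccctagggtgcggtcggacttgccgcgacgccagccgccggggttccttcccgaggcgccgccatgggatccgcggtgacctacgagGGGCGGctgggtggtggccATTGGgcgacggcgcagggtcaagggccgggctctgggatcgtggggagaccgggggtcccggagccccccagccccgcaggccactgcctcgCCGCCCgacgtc
GC boxes numbered 2 in NLE1, TMEM51 and PRDM2 and 4 in AUH, CCAAT boxes 2 in AUH and 1 in PRDM2, and ATOSA and GPATCH2 held none of the 3 motifs. The GC content was 77.6% in TMEM51, 71.2% in ATOSA, 70.8% in PRDM2, 64% in AUH, 56% in NLE1 and 45.2% in GPATCH2, against a median of 58% over 35116 promoters of the same length. In those promoters GGGCGG occurred in 42.6%, CCAAT in 32.0% and TATAAA in 10.7% on either strand. These are matches of letters, described without a test.

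Of 290 named mRNA units with no unit opposite and at least 0.5 CPM on the opposite strand, 7 (2.41%) were called higher there and 87 (30%) lower (median -0.45). All 7 higher units are given here, and of the lower ones only the 8 lowest follow. NLE1, a ribosome assembly gene (chr17:35122660-35142282), had 1.88 and 1.55 CPM in TT-Seq and 0.547 and 0.395 CPM in Total RNA-Frag-Seq there, with a log2 fold change of 1.83 ± 0.32 (adjusted p = 6.86e-05), and its ratio to the own strand was higher by 2.29 ± 0.29. Of its counts on that strand 92.4% in TT-Seq and 85.7% in Total RNA-Frag-Seq lay in the first 2 kb, and 57.8% and 35.7% in 1 bin (chr17:35141201-35141400), 1.00 kb inside the RefSeq start. AUH, an RNA-binding enoyl-CoA hydratase gene (chr9:91206985-91361877), had 7.43 and 6.99 against 3.55 and 4.38 CPM (0.87 ± 0.15), with counts in 169 of 774 bins in TT-Seq and in 95 in Total RNA-Frag-Seq. PIR had 0.425 and 0.597 against 0.182 and 0.118 CPM (1.71 ± 0.54), a call lost without TT-Seq replicate 2 (adjusted p = 0.0527) or Total RNA-Frag-Seq replicate 2 (adjusted p = 0.0778). ATOSA stood at 0.88 ± 0.37 (adjusted p = 0.0481), a call lost when any 1 of the 4 libraries was left out (adjusted p from 0.085 to 0.278). TMEM51 stood at 0.66 ± 0.22, a call lost without either Total RNA-Frag-Seq library (adjusted p = 0.106 and 0.0505). ZNF214, a zinc finger gene, had 12.2 and 10.9 against 7.17 and 9.32 CPM (0.49 ± 0.14), a call lost without Total RNA-Frag-Seq replicate 1 (0.30, adjusted p = 0.122). ABI1, an actin regulator gene, had 27.7 and 26.3 against 21.1 and 20.8 CPM (0.36 ± 0.10), but its own strand was higher too (0.46), and its ratio was -0.10 ± 0.13. Unlike in NLE1, the first 2 kb held only 9.28% of the opposite-strand TT-Seq counts in ATOSA and 7.58% in TMEM51. In AUH the share was smaller than in either. In ATOSA 53.6% of these counts in TT-Seq, against 4.55% in Total RNA-Frag-Seq, lay in 1 bin 45 kb from the unit's start.

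For several of the lowest opposite strands the bin with most counts lay over another annotated feature. ZNF286A had 1.64 and 2.17 CPM in TT-Seq and 21.98 and 20.5 CPM in Total RNA-Frag-Seq opposite to its unit (-3.47 ± 0.20, adjusted p = 9.56e-11). Of these counts 51.3% in Total RNA-Frag-Seq and 37.7% in TT-Seq fell in 1 bin over the pseudogene UBE2SP1. In FOXO3B (-2.50 ± 0.26) 52.5% and 64.3% fell in 1 over UBE2SP2. ZYG11B had 12.2 and 8.66 against 46.4 and 35.1 CPM (-1.97 ± 0.15), with 51.1% and 37.4% in 1 bin over the ribosomal pseudogene RPS13P2, and MIGA1 (-2.22 ± 0.27) had 24% and 9.38% in 1 over LOC653631. The highest bin opposite HCN3 (-2.64 ± 0.20) lay in PKLR. Reads of pseudogenes can come from near-identical parent genes, so these values are uncertain. EEF2, the elongation factor gene, had 1.29 and 1.58 against 9.08 and 10.03 CPM (-2.73 ± 0.18) opposite to an own strand that fell by 3.07 on the log2 scale, and its ratio was 0.34 ± 0.22 (adjusted p = 0.198). CALCOCO2 (-2.36 ± 0.20) and ZNF84 (-2.36 ± 0.48) completed the list.

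Farther than 5 kb from every unit, 6684 bins were higher and 13191 lower of 28239 (23.7 and 46.7%, median -0.51). In protein-coding gene spans such bins were 5069 higher and 6081 lower of 16133 (median -0.01), but 6795 higher and 5192 lower without TMM factors. Pseudogenes held 225 and 1539 of 2156 (median -1.71), long non-coding genes 521 and 2984 of 4956 (median -0.95), and ground with no RefSeq gene 858 and 2543 of 4935 (median -0.70). The counts that follow cover the far bins of a gene's span, which may hold a unit elsewhere. These genes were picked after their values were seen, so the number named on either side is not a result. XPR1, a phosphate exporter gene (chr1:180632022-180890279), had 242 bins higher and 40 lower of 470 (median 0.77). CD2AP, an adaptor protein gene, had 244 and 22 of 419 (median 0.83), and RNGTT, the gene of the mRNA capping enzyme, 173 and 18 of 293 (median 0.87). TGFBR2, a TGF-beta receptor gene, had 135 and 11 of 211, TMEM135 had 88 and 1 of 133, and the aryl hydrocarbon receptor gene AHR had 100 and 21 of 141. SMYD3, with 139 and 89 of 357, and RABGAP1L, with 57 and 90 of 263, were mixed. RGS6, a regulator of G protein signalling, went the other way with 13 and 159 of 220 (median -1.19), as did C1QTNF3 with 0 and 138 of 157 (median -1.42). RNF213, with 4 and 103 of 118, and POLA1, with 9 and 74 of 99, were also mostly lower. The bins of 1 gene share a transcript and are not replicates of each other.

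Some far bins were close to absent from one group, and are given as counts because few counts allow no firm fold. In PPP2R2C, a phosphatase subunit gene, 1 bin (chr4:6443601-6443800, plus strand) had 2.45 and 2.46 CPM in TT-Seq against 0.0899 and 0.117 in Total RNA-Frag-Seq, from 170 and 176 counts against 3 and 3. A bin with no RefSeq gene (chr3:186760801-186761000, plus strand) had 91 and 139 counts in TT-Seq and 0 and 1 in Total RNA-Frag-Seq. Bins in AHR (79 and 74 against 2 and 0 counts), TANC1 (73 and 76 against 1 and 1) and AGAP1 (85 and 61 against 1 and 1) were similar. On the other side, a bin in the ribosomal RNA genes RNA45SN1 and RNA18SN1 (chr21:8436801-8437000) had 3 and 2 counts in TT-Seq and 182 and 108 in Total RNA-Frag-Seq, and 1 over the 5S gene RNA5S9 had 2 and 4 against 174 and 126. A bin in the 7SK pseudogene RN7SKP255 (chr14:89712601-89712800) had 4 and 6 against 204 and 176 counts, one in FTH1P8 0 and 1 against 34 and 29, and one in MED12L, over RNA5SP145, 1 and 1 against 57 and 40. Ribosomal RNA genes, 5S genes and these pseudogenes exist in near-identical copies, so the place of their reads is uncertain.

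A block on chromosome 21 was picked after its values were seen, and its end at 9000000 is the limit of the stretch searched. Whether its reads also match other places in the genome was not examined. From 8988001 to 9000000 on the plus strand, 55 of 60 bins were higher and 3 lower (median 1.37). The block held 2541 and 2088 CPM in TT-Seq and 959.8 and 1010.4 CPM in Total RNA-Frag-Seq, 2.35 times as much on average in TT-Seq. The RefSeq table lists no gene inside it, and the microRNA genes MIR3648-2 and MIR10396A lie just before it.

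Small structured RNAs, which work inside stable ribonucleoproteins, were mostly lower. Of 47 genes listed 38 had a tested bin, on 43 gene strands in all, and of their 64 bins 47 were lower and 8 higher. Over all 629634 bins tested, 35.7% were lower and 30.8% higher. The counts for these genes pool both strands where tested, since the annotation read here gives no strand for them. RN7SK, the RNA that holds the elongation factor P-TEFb inactive (chr6:52995620-52995951, plus strand), had 52.9 and 59.9 CPM in TT-Seq and 445 and 506 CPM in Total RNA-Frag-Seq, with a log2 ratio of -3.08. RN7SL1, the RNA of the signal recognition particle (chr14:49586580-49586878, plus strand), had 19.8 and 28.5 against 147 and 168 CPM (-2.70). The RNase P RNA gene RPPH1 (minus strand) had 21.5 and 35.1 against 291 and 295 CPM (-3.37), and RMRP, the RNA of the related RNase MRP (minus strand), 37.97 and 47.1 against 246 and 274 CPM (-2.61). On their other strand, at lower levels, RN7SK stood at -4.29, RN7SL1 at -3.94, RPPH1 at -3.40 and RMRP at -2.90. TERC, the template RNA of telomerase (chr3:169764610-169765060, minus strand), had 2.51 and 4.74 against 46.2 and 39.9 CPM (-3.57). In each of these genes both TT-Seq libraries lay severalfold under both others. SCARNA2, a guide RNA of Cajal bodies, had the lowest ratio of all, with 1.70 and 2.99 against 57.1 and 55.3 CPM (-4.58).

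Spliceosomal RNA genes were not alike. RNU1-1 (chr1:16514122-16514285, minus strand) had 8.34 and 7.62 against 1.71 and 1.48 CPM (2.32), and RNU1-2 stood at 2.93. RNU5F-1 (minus strand) had 11.97 and 13.5 against 3.24 and 3.04 CPM (2.02) and RNU5D-1 stood at 1.53, while the related genes RNU5A-1 (-3.04) and RNU5B-1 (-2.73) were lower. RNU6-8 was higher (1.39) and RNU6-2 was not called (-0.04). RNU2-2 (-2.17), RNU4-1 (-1.85) and RNU6ATAC (-3.42) were lower. These genes are shorter than a bin and many have near-identical copies, so a bin also holds its flanks, and its reads cannot be placed with certainty. Vault and Y RNAs gave VTRNA1-1 at -3.11, RNY1 at -2.87 and RNY3 at -3.17, with VTRNA1-3 (0.47, adjusted p = 0.0802) not called.

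The mitochondrial genome is transcribed from both strands as long precursors that are cut into RNAs. On the plus strand 2 of 82 bins were higher and 77 lower in TT-Seq (median -1.31), and on the minus strand 7 were higher and 30 lower of 82 (median -0.24). The minus strand took 45.4% and 44.8% of mitochondrial counts in TT-Seq and 26.0% and 27.6% in Total RNA-Frag-Seq, with exact permutation p = 0.33. The ribosomal RNA gene RNR1 had 131 and 135 CPM on the plus strand in TT-Seq and 1001 and 1049 in Total RNA-Frag-Seq, a log2 ratio of -2.95. RNR2, the other ribosomal RNA gene, had 338 and 312 against 1846 and 1942 CPM (-2.54). Both were also lower on the minus strand (-3.60 and -2.76). The plus strand of protein-coding genes ran from -0.99 in ND1, a complex I subunit, to -1.84 in COX3, a cytochrome oxidase subunit. On the minus strand ND6, the subunit encoded there, had 653 and 646 CPM in TT-Seq and 523 and 649 in Total RNA-Frag-Seq, with overlapping groups (0.15). CYTB, whose minus strand is antisense, had 1166 and 1062 against 782 and 987 (0.33), while the minus strands of COX1 (-0.93) and COX3 (-1.01) were lower.

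**Figure D5:**
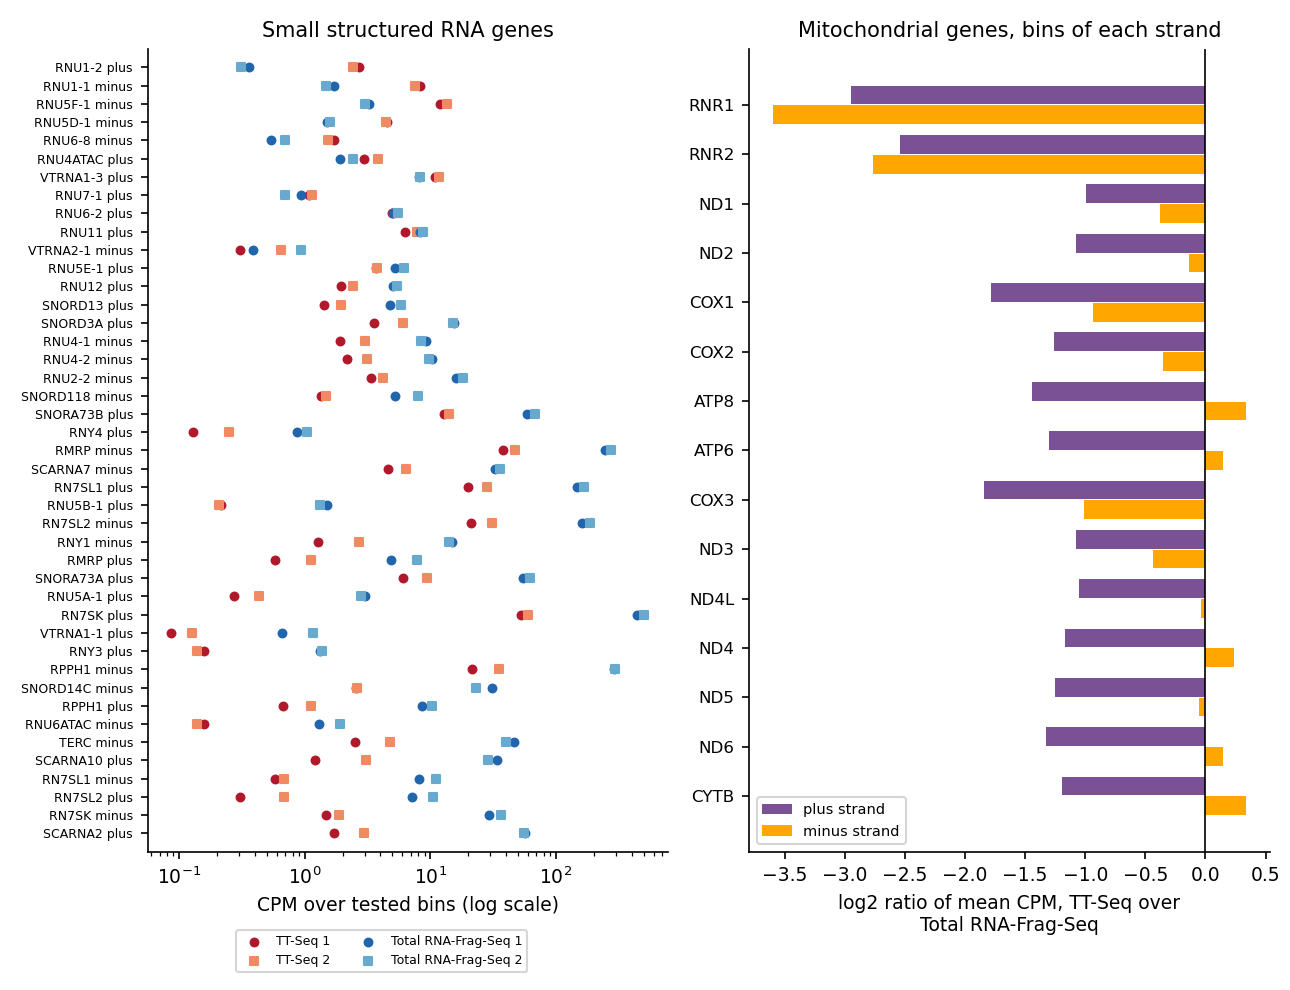
Left, CPM over the tested bins of 43 strands of small structured RNA genes (log scale), 1 point per library, ordered by log2 ratio. The TT-Seq points (red and orange) lie left of the blue ones for most genes and right of them for RNU1-2, RNU1-1, RNU5F-1 and RNU5D-1. Right, log2 ratio of mean CPM for mitochondrial genes on the plus (purple) and minus (orange) strand: RNR1 reaches -2.95 and -3.60, and CYTB is -1.19 on the plus and 0.33 on the minus strand.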

How the data were processed

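RNA of K562 cells was counted in 200 bp bins on each strand of hg38, and the authors deposited these counts as whole numbers, per the file headers. The authors also deposited transcriptional units that they segmented from TT-Seq, with a class for each. The submitters' processing notes list STAR 2.3.0, Bowtie2 2.1.0 and SAMtools without their roles. The table's 4 further columns belong to no RNA sample and were not used. Bins were summed per unit on its own and on the opposite strand, and in 1 kb and 2 kb windows at unit ends. Units took a symbol from the RefSeq span (GRCh38.p14) they matched by overlap or by cover and start, which named 7215 of 21874. Differences were tested with edgeR 4.0.16 (R 4.3.3), quasi-likelihood, with TMM factors from own-strand sums and Benjamini-Hochberg adjustment at 0.05. Unit and window fits used all 8 RNA libraries, which share 1 estimate of spread, and the fit of single bins used the 4 libraries compared, with at least 0.5 CPM in at least 2. An SE is the absolute log2 fold change over the square root of F. Shares and profiles were compared with exact two-sided permutation tests over 2 against 2 libraries. The replicates differed by more than counting noise (chi-square per degree of freedom 5.05 in TT-Seq and 8.07 in Total RNA-Frag-Seq over 14523 units) and were counted separately. Low depth limits single bins most.

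On simulated counts with 100 features changed at each size, 79 of the 2-fold and 100 of the 4-fold changes were recovered for units on their own strand (19318 units). The numbers were 82 and 99 on the opposite strand (14775 units), 61 and 99 for windows (10454) and 47 and 99 for single bins (50000). Named were the 2 highest and 2 lowest called units of each gene list and all identity genes, the 8 highest and 8 lowest opposite strands of mRNA units with no unit opposite and at least 0.5 CPM, and the 5 highest and 5 lowest bins over 5 kb from units with at least 1 CPM. Also named were the 8 units called higher with most bins lower, the 8 called lower with most bins higher, the 6 longest units of at least 5 CPM, and small structured RNA genes. The comparison, lists and rules were chosen with earlier results of these data known. The strand ratio, the length classes and lengths within lists, the steps and 50 kb stretches along units, the genes with bins far from units, the 3 upstream antisense windows and the chromosome 21 block were chosen after seeing the data. Alternatives covered scaling, filters, DESeq2 1.42.0, a replicate block, bin choice and leaving out each library.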

Additional observations from a re-analysis of the deposited data

How the results depend on the processing

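Among 122 named results, 1239 of 1295 values under alternatives kept direction and side of the threshold, 45 lost the call and 11 reversed, and 99 results kept both throughout. Without TMM factors lower units on the own strand numbered 4848 in place of 7300, opposite strands 4553 higher and 3825 lower, windows 2650 and 3583, and single bins 261074 and 186947. The same setting turned CHCHD3 to 0.11, EPB41 to 0.0215, EPS15 to 0.24, MACF1 to 0.0265, MAST4 to 0.20, NBAS to 0.19, PRKCB to 0.12, SOX6 to 0.26, SUGCT to 0.10 and GYPB to 0.33, and GYPB, which was not called, ranged from -0.0714 without Total RNA-Frag-Seq replicate 2 to 0.0337 without TT-Seq replicate 2. With bins that lie in no other unit, called opposite strands numbered 2003 in place of 8524 (258 higher and 1745 lower). With at least 1 CPM, called bins numbered 184883 in place of 418895 (79425 higher and 105458 lower), since fewer bins were tested. The gap in the highest 10% of bins was -6.93 percentage points over units of at least 50 kb and -9.05 for the highest 20%, in place of -9.58. The gap in part 10 of units was -3.17 over units of at least 50 kb in place of -2.25, and in part 1 0.582 with summed counts and 0.808 over units of at least 50 kb in place of 1.43. The share of counts in units was higher in TT-Seq by 0.921 percentage points on chromosomes 1 to 22 and X and by 1.39 with bins under 1000 counts, in place of 1.83. The cause of these moves was not tested. Leaving out 1 library in turn gave 7480 to 8058 higher and 6559 to 7276 lower units, 2398 to 2913 and 4445 to 4914 opposite strands, 1395 to 1852 and 4004 to 4432 windows, and 140419 to 181548 and 206553 to 213407 bins. With a replicate block, 8385 units were higher and 7360 lower, and EPS15 lost its call (adjusted p = 0.0502). Samples share only a number: deviations of same-numbered libraries had a correlation of 0.210 over 11821 units. DESeq2 called 7291 higher and 7104 lower. With 2 libraries a group and fewer counts in Total RNA-Frag-Seq, small differences in weak bins were not detectable.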
